A study of Mus musculus with 12 samples.

Results

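A set of 8 genes of epithelial cell junctions was followed in spontaneous lung tumours and normal lungs of aged mice. They were the adhesion molecule Epcam, the tight junction genes Ocln, Tjp1, Tjp3 and Cgn, and the desmosome genes Dsp, Dsg2 and Pkp1. The genes were taken by name, each with the probe sets annotated to its symbol alone, which gave 8 of 18193 genes and 18 of 45037 probe sets. Each gene was represented by its brightest probe set, that with the highest mean log2 signal over all 12 arrays. The study hybridised 6 spontaneous lung tumours and 6 normal lungs to Affymetrix arrays, 1 sample per array. All came from B6C3F1 mice of 2 years, the hybrid of C57BL/6 and C3H mice used in long-term rodent bioassays, and neither group had received a treatment. No transgene or engineered allele is named for either group. Whether each sample of a group came from its own animal is not stated, and the p-values reflect the spread among samples only.

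Epithelial cells are joined by stacked junctions. At the tight junction, transmembrane proteins such as occludin and the claudins seal the gap between cells, and scaffolds such as the ZO proteins and cingulin tie them to actin. Below it lie the adherens junction, built on E-cadherin, and the desmosome, in which desmosomal cadherins are bound through plakophilins and plakoglobin to desmoplakin and so to keratin filaments. Lung epithelium has all of them, and cardiac muscle, which sheathes the pulmonary veins of the mouse, also uses desmosomal proteins, while endothelium also makes ZO-1.

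The regions upstream of transcript starts were read for the 6 genes with a RefSeq promoter (assembly GRCm38.p6), Epcam, Ocln, Tjp1, Tjp3, Cgn and Dsp. Those of Epcam and Tjp3, which were higher in tumours, of Tjp1, which was lower, and of Dsp, which differed between tumours, are shown as the 250 bases before the start, 5′ to 3′ on the strand of the gene. Capitals mark the E-box CAGGTG on either strand (CACCTG on the other), the letters bound by repressors of the Snail and Zeb families. The windows are chr17:87635729-87635978 on the plus strand, chr10:81291582-81291831 and chr7:65371245-65371494 on the minus strand and chr13:38151044-38151293 on the plus strand.
Epcam: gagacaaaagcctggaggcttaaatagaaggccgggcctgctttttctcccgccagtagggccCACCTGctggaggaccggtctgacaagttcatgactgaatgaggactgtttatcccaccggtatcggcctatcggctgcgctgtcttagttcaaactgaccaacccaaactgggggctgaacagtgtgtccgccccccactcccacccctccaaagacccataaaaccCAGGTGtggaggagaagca
Tjp3: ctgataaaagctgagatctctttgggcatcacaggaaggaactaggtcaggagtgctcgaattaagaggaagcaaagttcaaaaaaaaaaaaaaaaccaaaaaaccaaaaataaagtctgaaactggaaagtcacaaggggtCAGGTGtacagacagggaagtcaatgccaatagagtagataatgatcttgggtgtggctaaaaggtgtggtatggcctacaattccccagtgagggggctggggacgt
Tjp1: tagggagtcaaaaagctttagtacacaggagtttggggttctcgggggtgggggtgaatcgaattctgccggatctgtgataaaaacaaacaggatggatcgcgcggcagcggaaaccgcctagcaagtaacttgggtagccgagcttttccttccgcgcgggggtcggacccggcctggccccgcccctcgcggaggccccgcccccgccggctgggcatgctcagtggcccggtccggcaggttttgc
Dsp: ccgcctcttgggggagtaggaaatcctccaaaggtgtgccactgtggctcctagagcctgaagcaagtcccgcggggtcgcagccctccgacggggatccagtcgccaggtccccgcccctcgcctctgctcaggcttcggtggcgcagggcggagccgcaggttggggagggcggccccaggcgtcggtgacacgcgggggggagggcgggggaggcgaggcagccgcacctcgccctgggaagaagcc
The E-box was present in 2 of the 6 windows, with 2 matches upstream of Epcam and 1 upstream of Tjp3, and in 17.2% of 32851 mouse windows of the same length. The GC box GGGCGG, on either strand, was present in 5 of the 6, Tjp3 being the exception, against 32.7% of all windows. Bases G and C made up 56.4% to 72.4% of those 5 windows and 43.2% of that of Tjp3. The median over all windows, which include every listed start, was 52.4%. The part of base content in the GC box matches was not tested. For Ocln and Tjp3, which have 2 listed starts, the more upstream start was used. These matches describe letters only and were not measured as binding.

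Median signal per array was 151 to 164 in normal lungs and 126 to 149.8 in tumours. Differences between groups (tumours less normal lungs) are in log2(signal + 16), with the standard error and n = 6 arrays per group, and adjusted p-values come from limma with Benjamini-Hochberg adjustment over all probe sets. The offset understates the differences of dim genes. A gene was called higher or lower at an adjusted p below 0.05. Of the 8 genes 2 were called higher and 1 lower, where 12.1% and 17.4% of all 18193 genes were, and 29.5% in either direction. All 6 tumours were above all normal lungs for 2 of the 8, against 6.74% of all genes, and below them for 1, against 11.7%. That left 5 of the 8 with overlapping groups, the groups being apart in 18.4% of all genes. The median difference of the 8 was 0.67, against -0.08 over all genes. Tumours 1, 2, 3 and 5 carried the Y-linked transcript Eif2s3y at 740 signal units or more, and the other samples at 27.4 or less. Sex, as read from this transcript, was thus not balanced between the groups. The part of sex in the differences was not tested. Normal lungs 2 and 4 carried liver transcripts in an earlier description of these arrays, and none of the calls on the 8 genes changed without them.

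Epcam, a homophilic adhesion molecule of simple epithelia that stabilises claudins, rose in every tumour. Its signal was 1479, 1522, 1519, 1520, 1446 and 1404 in normal lungs 1 to 6 and 4160, 11085, 8227, 7669, 8395 and 6404 in tumours 1 to 6. The normal lungs were nearly equal, the highest 1.08 times the lowest, and the lowest tumour stood far above them. The mean rose from 1482 ± 48.3 to 7656 ± 2299 (SD, n = 6), a 5.17-fold ratio of means and a difference of 2.30 ± 0.18 (adjusted p = 5.02e-07). The other Epcam probe set rose less, from 361 ± 62.3 to 653 ± 109 (SD, n = 6), by 0.83 ± 0.15 (adjusted p = 9.86e-04), again with no overlap of groups. The mean of both probe sets differed by 1.56.

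Tjp3 (ZO-3), an epithelial ZO scaffold, rose as well, at a low level. Signals were 249, 330, 278, 290, 214 and 240 in normal lungs 1 to 6 and 374, 450, 497, 521, 589 and 413 in tumours 1 to 6. All tumours lay above all normal lungs. Its mean of 267.0 ± 41.2 in normal lungs became 474 ± 77.7 in tumours (SD, n = 6), which is 0.79 ± 0.15 higher on the log2 scale (adjusted p = 0.00124).

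Tjp1 (ZO-1), the ZO scaffold that is shared by epithelium and endothelium, fell in every tumour. Signals were 7478, 9732, 7768, 8986, 8970 and 9658 in normal lungs 1 to 6 and 6042, 5034, 4943, 5046, 3562 and 5565 in tumours 1 to 6. The highest tumour, tumour 1, stayed below the lowest normal lung, and tumour 5 was lowest. Normal lungs averaged 8765 ± 946 and tumours 5032 ± 833 (SD, n = 6), and the log2 difference was -0.81 ± 0.13 (adjusted p = 3.60e-04). Endothelial markers fell along with it, 10 of 10 measured, with a summed signal of 60365 to 82649 in normal lungs and 5107 to 14460 in tumours. Cardiac muscle markers, 8 of 8 lower, summed to 17860 to 29209 and 374 to 2669. Every endothelial marker still had signal in tumours, with tumour means from 251 for Tie1 to 2591 for Esam, and cardiac marker means ran from 60.8 for Myoz2 to 694 for Tnnt2. Their part in the fall of Tjp1 was not tested. In bulk tissue fewer cells of a type and less RNA per cell cannot be told apart.

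Ocln, the transmembrane protein occludin, did not pass the threshold on its brightest probe set. Signals were 1231, 1470, 1337, 1504, 1792 and 1825 in normal lungs 1 to 6 and 1048, 1407, 1455, 1120, 972 and 1643 in tumours 1 to 6. The groups overlapped, with tumours 1, 4 and 5 below every normal lung. The difference was -0.27 ± 0.15 (95% interval -0.59 to 0.05, adjusted p = 0.224). Its dimmer probe set fell, from 701 ± 70.9 to 496 ± 67.5 (SD, n = 6), by 0.49 on the log2 scale (SE 0.13, adjusted p = 0.00931), and all 6 tumours were below all normal lungs on it. The mean of both probe sets was lower in tumours (-0.38, adjusted p = 0.0244), so the call for Ocln depends on which probe set represents it.

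Cgn, cingulin, which links the ZO scaffolds to actomyosin, did not pass either. Signals were 792, 713, 946, 809, 872 and 933 in normal lungs 1 to 6 and 1002, 798, 1252, 1004, 1144 and 974 in tumours 1 to 6. Apart from tumour 2, the tumours lay above all normal lungs. The difference was 0.27 ± 0.12 (95% interval 0.01 to 0.54, adjusted p = 0.131), and 0.63 ± 0.28 on its dimmer probe set (adjusted p = 0.124). Without tumour 2 it passed (0.34, adjusted p = 0.0425), and it passed after centring each array on its median (0.46, adjusted p = 0.00987). That centring shifted the median difference of all probe sets from -0.06 to 0.13.

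**Figure D1:**
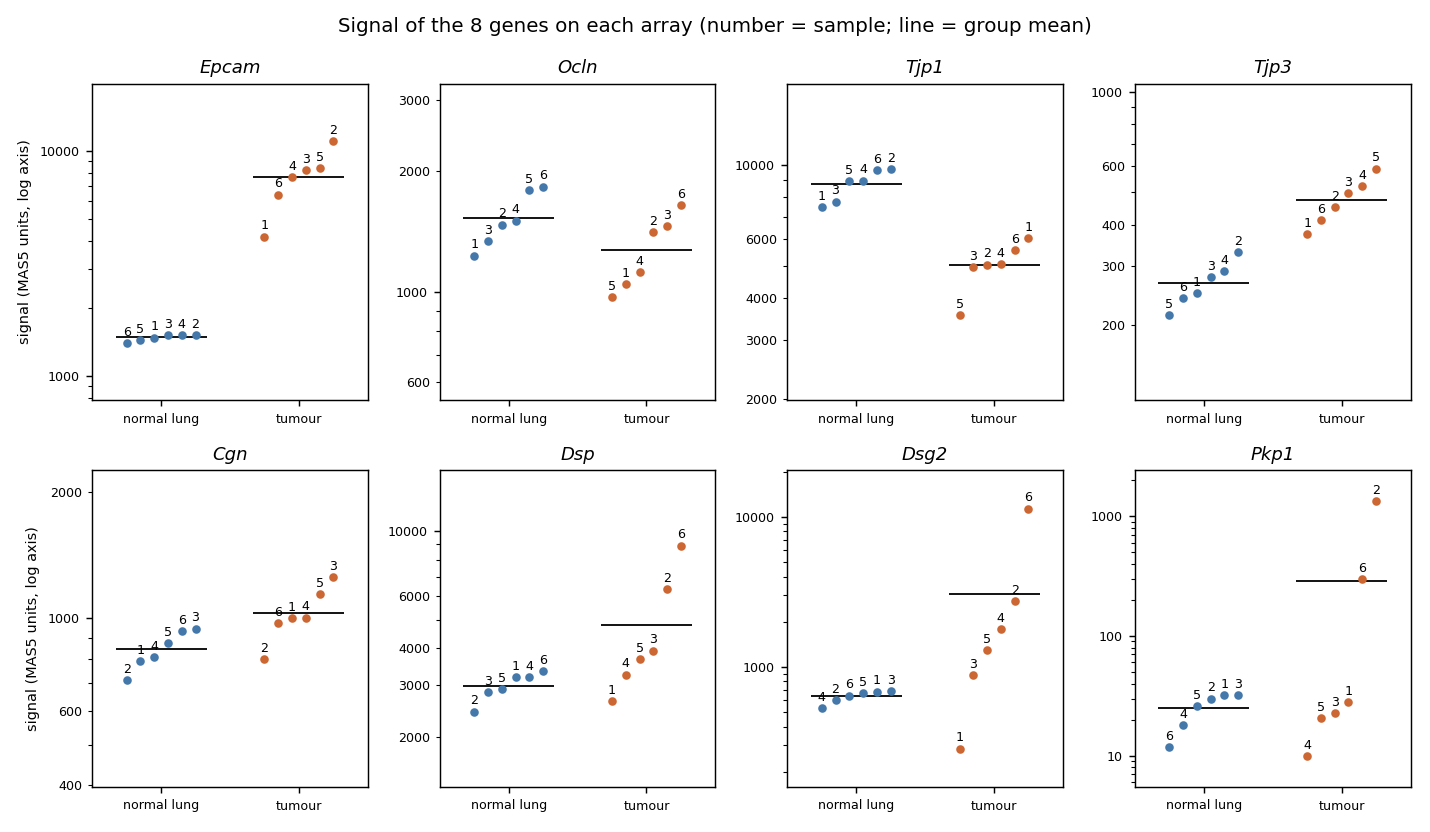
Signal of the brightest probe set of each gene on a log axis, 1 point per array labelled with its sample number, and the group mean as a line. Epcam and Tjp3 tumours lie above and Tjp1 tumours below all normal lungs, and Dsg2 tumours span from 286 to 11323.

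The desmosome genes Dsp, Dsg2 and Pkp1 had wide spreads between tumours, and none passed the threshold. Dsp, desmoplakin, which anchors keratin filaments, had signals of 3187, 2441, 2846, 3196, 2906 and 3358 in normal lungs 1 to 6. In tumours 1 to 6 it was at 2653, 6339, 3928, 3257, 3678 and 8915. Tumours 2 and 6 stood at 2.12 and 2.98 times the normal mean, tumours 1 and 4 within the normal range, and tumours 3 and 5 just above it. The difference was 0.56 ± 0.24 (95% interval 0.05 to 1.07, adjusted p = 0.11). Tumour 6 was highest and tumour 2 next on all 3 Dsp probe sets. The gene passed without tumour 1 (0.70, adjusted p = 0.0366) and after median centring (0.75, adjusted p = 0.0449), and was at 0.35 without tumour 6.

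Dsg2, desmoglein 2, the desmosomal cadherin of simple epithelia and heart, had the widest spread between tumours after Pkp1. Signals were 684, 600, 689, 531, 668 and 643 in normal lungs 1 to 6 and 286, 2753, 882, 1790, 1292 and 11323 in tumours 1 to 6. Tumour 1 was below and the other 5 tumours above every normal lung, and tumour 6 reached 17.8 times the normal mean. The highest tumour was 39.6 times the lowest, while the highest normal lung was 1.30 times the lowest. As a group the tumours differed by 1.34 ± 0.59 (95% interval 0.08 to 2.61, adjusted p = 0.12). On all 6 Dsg2 probe sets tumour 6 was highest and tumour 1 lowest among tumours, although on 3 of these the normal lungs averaged less than the median signal of all probe sets, 149. The gene passed without tumour 1 (1.83, adjusted p = 0.0112) and was at 0.79 without tumour 6. In the comparison without the 4 tumours with Eif2s3y, which leaves tumours 4 and 6, Dsg2 was higher by 2.80 (adjusted p = 0.00202). That comparison keeps tumour 6, the highest, and leaves out tumour 1, the lowest.

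Pkp1, plakophilin 1, a desmosome plaque protein of stratified epithelia, was near the bottom of the scale in 10 of the 12 samples. Signals were 31.9, 30.0, 32.0, 18.1, 26.1 and 11.8 in normal lungs 1 to 6 and 28.1, 1336, 22.8, 9.90, 20.7 and 297 in tumours 1 to 6. Tumours 2 and 6 alone were raised, and no fold is given for them because the normal lungs were close to the offset and below the median signal of 149. The other 4 tumours lay within or, for tumour 4, below the range of the normal lungs. The group difference was 1.22 ± 0.79 (95% interval -0.47 to 2.92, adjusted p = 0.306), and 0.45 without tumour 2. A single probe set measures Pkp1.

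Among the 8 genes, spread between tumours was wider for the 3 desmosome genes than for the others, a difference not tested. On the log2 scale the SD over tumours was 0.65 for Dsp, 1.74 for Dsg2 and 2.28 for Pkp1, against 0.17, 0.14 and 0.32 over normal lungs. Of all genes, 98.9% had a smaller SD over tumours than Dsg2 and 99.5% a smaller one than Pkp1. The SD over tumours was 0.22 for Cgn, 0.23 for Tjp3, 0.26 for Tjp1, 0.30 for Ocln and 0.47 for Epcam, and the median over all genes was 0.44. The other genes of both junctions overlapped in this, with an SD over tumours of 1.27 for Amot, 0.93 for Ildr1 and 0.86 for Magi1 of the tight junction list, and of 0.29 for Pkp2, 0.39 for Jup and 1.90 for Dsc2 of the desmosome list. Tumours 2 and 6 were the highest pair of tumours for 3 of the 8 genes, all 3 from the desmosome, a pattern picked out after the values were seen. It was also seen in 12.9% of all genes, and in 16.2% of genes with a mean above the median signal in either group, as all 8 had. Pkp1 met that limit only through tumours 2 and 6, its other samples being at 32.0 or less. Genes raised in those tumours alone can pass this filter, so the 16.2% is not independent of the pattern. In the lists it was seen in 4 of 12 other desmosome genes, 5 of 22 other tight junction genes and 5 of 10 adherens junction genes. Of the 8 other desmosome genes above the median signal 3 had it. Tumour 1 was the lowest tumour for Epcam, Tjp3, Dsp and Dsg2 and the highest for Tjp1, and it was lowest for 16.4% of all genes. This order did not hold on every probe set. On the dimmer Epcam probe set tumour 1 was next to the highest and tumour 4 lowest, and on 1 of the 3 Dsp probe sets tumour 5 was lowest.

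The keratins of simple epithelia, Krt7, Krt8, Krt18 and Krt19, whose filaments desmosomes anchor, had their highest values in tumours 2 and 6. Of the dim keratins of stratified epithelia, Krt6a did too, and Krt5, Krt13, Krt14 and Krt17 did not. Krt18 was at 6120, 33832, 12701, 8952, 12676 and 29486 in tumours 1 to 6, against 2344 to 3388 in normal lungs, and rose by 2.36 ± 0.34 (adjusted p = 1.11e-04). Krt7 reached 29772 in tumour 2 and 13500 in tumour 6, and the other tumours had 3122 to 3849, below the 4264 to 5426 of normal lungs. The type II marker sum, of the surfactant-making cells, was lowest in these tumours, at 133915 and 109069, against 193144 to 241921 in the others. Normal lungs had 118787 to 164436, so that tumour 2 lay within their range, tumour 6 below it and the other tumours above it. Of 10 basal and squamous markers 3 were highest in tumours 2 and 6, against 12.9% of all genes. They were Krt6a and the cornified envelope genes Ivl, involucrin, and Sprr1a. Krt6a stood little apart, at 277 and 281 in tumours 2 and 6, 233 in tumour 5 and 255 in normal lung 1. It was not called (0.23 ± 0.32). Ivl was at 5860 and 1406 and Sprr1a at 2328 and 2964 in tumours 2 and 6. In the other tumours Ivl was at 109 to 678 and Sprr1a at 106 to 244. The related Sprr1b (-0.09 ± 0.31) and Sprr3 (0.17 ± 0.32) were dim, not called and not highest in that pair. The defining basal cell genes stayed dim, with Trp63 at 56.1 or less and Krt14 at 70.2 or less in every tumour. Of the 10 markers 3 were called higher, Ivl (3.98 ± 0.71), Sprr1a (2.28 ± 0.69) and Krt5 (0.79 ± 0.27), and none was called lower. Their summed signal was 394 to 658 in normal lungs and 547 to 8650 in tumours. Mesothelial markers summed to 4774 and 12504 in tumours 2 and 6, to 115 to 408 in the other tumours and to 1497 to 3673 in normal lungs. Msln alone reached 12120. Of the 5 mesothelial markers 3 were called lower, among them Upk3b (-3.95 ± 0.63, adjusted p = 2.59e-04), and none was called higher. The part of these cell types in the desmosome values was not tested.

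**Figure D2:**
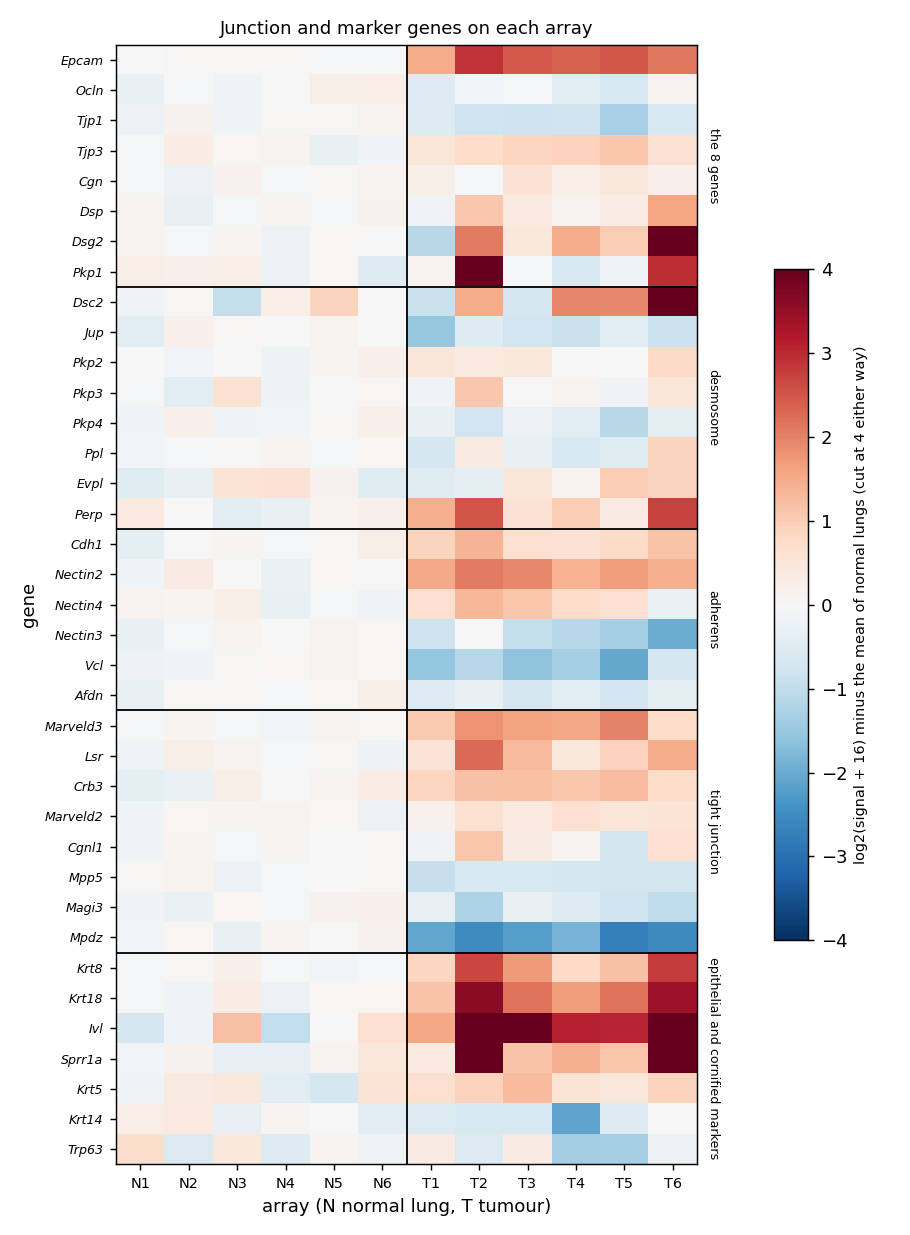
Each cell is the log2(signal + 16) of a gene on 1 array minus the mean of the normal lungs (N1 to N6), with tumours T1 to T6 at right and colours cut at 4 either way. The 8 genes are at the top, followed by the other desmosome genes above the median signal, the called adherens junction genes, some tight junction genes and markers. The tight junction rows include Cgnl1, which was not called, and leave out Jam2, Jam3, Prkcz and Arhgef2, which were called lower. Dsp, Dsg2, Pkp1, Perp, Krt8, Krt18 and Sprr1a are darkest in T2 and T6.

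Of 12 other desmosome genes 1 was higher and 2 were lower, a share near the 29.5% of all genes called in either direction, and the median difference was -0.05. Perp, a tetraspan protein of desmosomes and a p53 target, rose (1.43 ± 0.36, adjusted p = 0.00833), at 1353, 2845, 738, 1008, 617 and 3249 in tumours 1 to 6 against 360 to 643 in normal lungs. Jup, plakoglobin, which binds desmosomal cadherins to desmoplakin, fell from 2532 ± 356 to 1444 ± 353 (SD, n = 6; -0.83 ± 0.17, adjusted p = 0.00208). Pkp4, which is found mainly at adherens junctions, fell too (-0.53 ± 0.15, adjusted p = 0.0162), though not after median centring (adjusted p = 0.0992), without normal lungs 2 and 4 (adjusted p = 0.0666) or without the tumours with Eif2s3y (adjusted p = 0.0882). Dsc2, desmocollin 2, the partner cadherin of Dsg2, was at 21.3, 179, 27.9, 255, 247 and 1292 in tumours 1 to 6 and at 19.8 to 113 in normal lungs. It did not pass on that probe set (1.33 ± 0.69, adjusted p = 0.191) but did on the other one (2.50 ± 0.69, adjusted p = 0.0152). The other probe set had a lower mean in normal lungs (25.5 against 59.1) and a higher one in tumours (431 against 337). Pkp2 (0.35 ± 0.14) and Pkp3 (0.24 ± 0.22) did not pass on their brightest probe sets, while 2 of 4 and 1 of 2 of their probe sets did, upwards. With probe sets averaged, 4 genes of the list were higher, Perp, Dsc2, Pkp2 and Pkp3. Dsg1a, Dsg1b, Dsc1 and Dsc3, cadherins of stratified epithelia, were below the median signal in both groups.

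Among 22 other tight junction genes, claudins left out, 4 were higher and 7 lower, where 12.1% and 17.4% of all genes were. The median difference of the 22 was -0.16. Those higher were Marveld3 (1.45 ± 0.19, adjusted p = 4.33e-05) and Marveld2 (0.48 ± 0.13), both relatives of occludin, Crb3 (1.06 ± 0.15, adjusted p = 7.44e-05), an apical polarity protein, and Lsr (1.16 ± 0.25), angulin 1 of tricellular contacts. Marveld3 and Lsr did not pass with their probe sets averaged (0.31 and 0.33). Those lower were led by Mpdz (-2.32 ± 0.16, adjusted p = 2.22e-07), a multi-PDZ scaffold, and Mpp5 (-0.72 ± 0.10, adjusted p = 8.74e-05), the PALS1 scaffold that binds Crb3. Jam3 (-1.05 ± 0.19), Jam2 (-0.78 ± 0.22), Magi3 (-0.71 ± 0.16), Prkcz (-0.60 ± 0.15) and Arhgef2 (-0.58 ± 0.12) were also lower. Jam2 and Jam3 are adhesion molecules found in endothelium too, whose markers fell as given for Tjp1. The Prkcz call was lost after median centring, the Magi3 call with probe sets averaged and the Jam2 call in both cases, without normal lungs 2 and 4 and without the tumours with Eif2s3y. Cgnl1, paracingulin, did not pass (0.21 ± 0.23, adjusted p = 0.579). Without the tumours with Eif2s3y 7 genes were higher.

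The adherens junction list had 3 of 10 genes higher and 3 lower, against 12.1% and 17.4% of all genes, with a median difference of 0.35. Cdh1, E-cadherin, rose from 6106 ± 825 to 11504 ± 2561 (SD, n = 6; 0.90 ± 0.15, adjusted p = 4.64e-04), with all tumours above all normal lungs. Nectin2 rose by 1.67 ± 0.14 (adjusted p = 9.81e-07), and Nectin4 by 0.71 ± 0.24 (adjusted p = 0.0398), a call lost on leaving out any 1 array but normal lung 3 or tumour 6. Vcl, vinculin, fell (-1.39 ± 0.19, adjusted p = 5.52e-05), as did Nectin3 (-1.04 ± 0.24) and Afdn, afadin (-0.51 ± 0.12). The Afdn call was lost after median centring, without the tumours with Eif2s3y and with probe sets averaged. Of 7 general epithelial markers, Cdh1 among them, 5 were higher, the summed signal being 25811 to 30302 in normal lungs and 41783 to 142115 in tumours. Markers of single epithelial cell types fell in part: 6 of 7 of alveolar type I, 7 of 7 of ciliated and 5 of 6 of club cells were lower, while 3 of 7 of type II cells were higher. Club marker sums were 155178 to 224053 in normal lungs and 32672 to 102478 in tumours. Outside the epithelium, 5 of 5 smooth muscle and 4 of 6 fibroblast markers were lower, and none of either list was higher. Of 6 macrophage markers 2 were higher and 1 lower. The part of this mixture in the junction gene values, those of Vcl among them, was not tested.

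**Figure D3:**
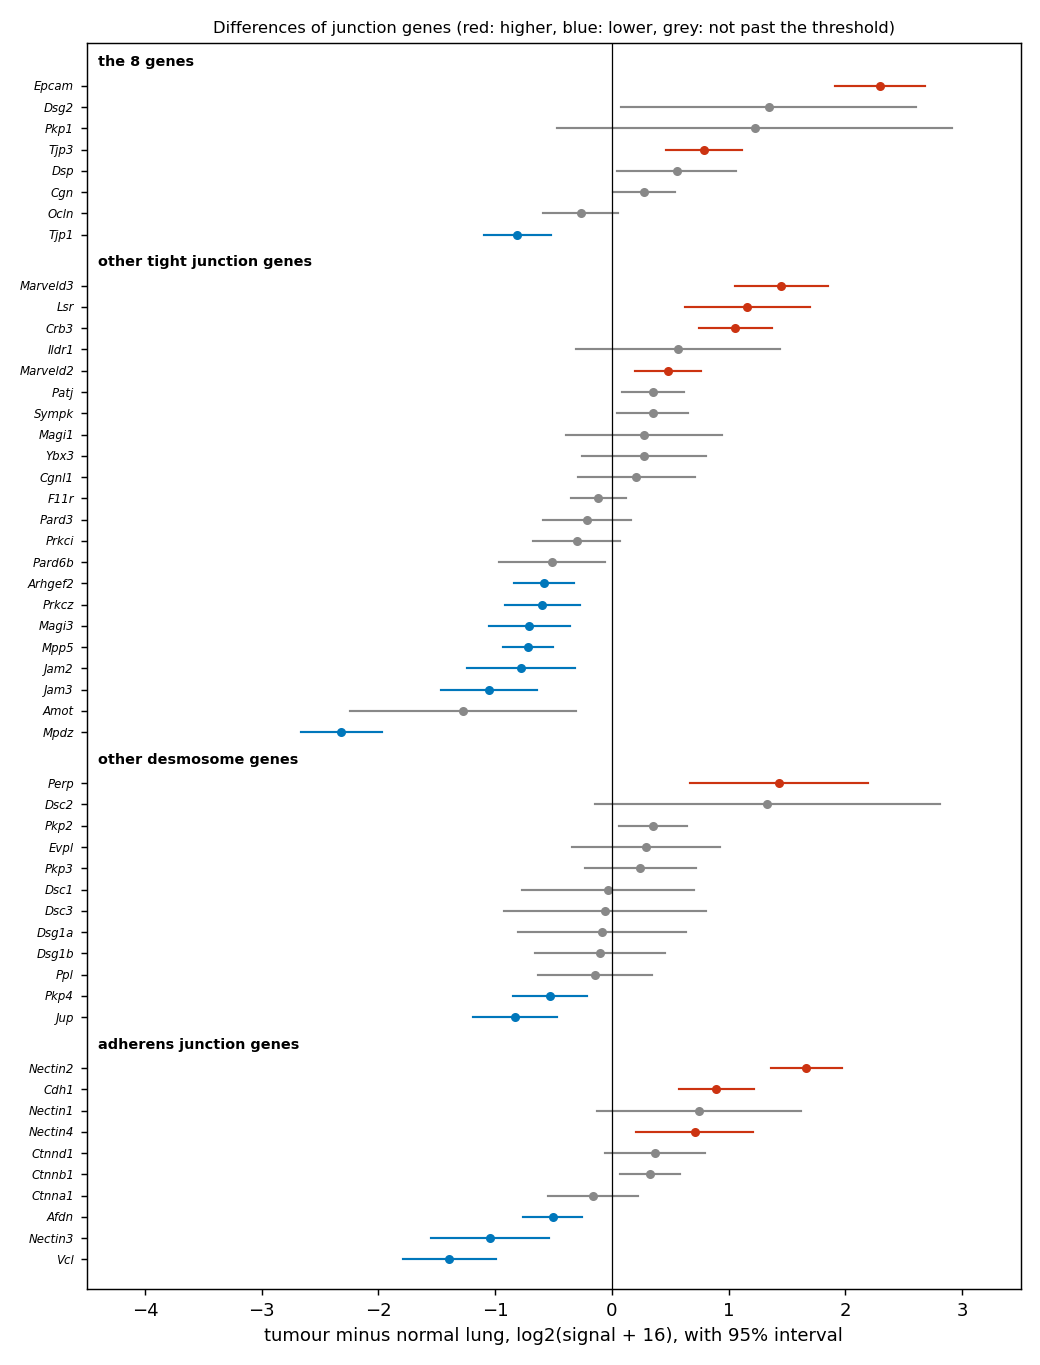
Difference between 6 tumours and 6 normal lungs for the 8 genes and 44 other junction genes, with 95% intervals, red where higher, blue where lower and grey where the threshold was missed. Of the 52 genes 10 were higher and 13 lower, against 12.1% and 17.4% of all genes. Epcam lies farthest to the right and Mpdz farthest to the left.

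Each gene was also compared with Cdh1 on the same array, and relatives were compared with each other. Changes in the log2 ratio were tested by an exact two-sided permutation test over all splits of the 12 arrays into 6 and 6, whose smallest p is 0.00216, with Benjamini-Hochberg adjustment over the 14 pairs run. Of the 14 pairs 6 passed. The ratio of Epcam to Cdh1 rose by 1.40 ± 0.23 and was higher in 6 of 6 tumours than in any normal lung (exact permutation p = 0.00216, adjusted 0.00606). The ratios of Ocln (-1.16 ± 0.14) and Tjp1 (-1.71 ± 0.16) to Cdh1 fell, below all normal lungs in 6 of 6 tumours each, at the same exact p and adjusted p. For Tjp1 this exact p was fixed by the single-gene values, Tjp1 lying below and Cdh1 above all normal lungs in every tumour. The ratio of Cgn to Cdh1 fell by 0.62 on the log2 scale (SE 0.22, exact permutation p = 0.00649, adjusted 0.0152) and was below all normal lungs in 5 of 6 tumours. It missed the threshold without normal lung 1, 3, 4 or 5, each at an adjusted p of 0.0505. The Cgn to Cdh1 ratio also missed it after quantile normalization (permutation p adjusted to 0.162), with probe sets averaged (0.269) and without normal lungs 2 and 4 (0.0667).

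The ratios of Tjp3 (-0.11 ± 0.23), Dsp (-0.34 ± 0.22), Dsg2 (0.45 ± 0.67) and Pkp1 (0.33 ± 0.83) to Cdh1 did not pass, with exact permutation p adjusted to 0.316 to 0.843. The Dsp ratio passed, downwards, without tumour 6 (-0.49, adjusted p = 0.0173). Between relatives, Tjp3 rose against Tjp1 by 1.60 ± 0.22, a 3.03-fold shift of the ratio seen in 6 of 6 tumours (exact permutation p = 0.00216, adjusted 0.00606). Ocln fell against its relative Marveld2 (-0.75 ± 0.17), also in 6 of 6 tumours and at the same exact p. The exact p of Tjp3 against Tjp1 is no further support. It was fixed by the single-gene values, Tjp3 lying above and Tjp1 below all normal lungs in every tumour. The Cgn to Cgnl1 (0.06 ± 0.34), Dsg2 to Dsc2 (0.01 ± 0.41), Pkp1 to Pkp3 (0.98 ± 0.77) and Pkp1 to Pkp2 (0.87 ± 0.89) ratios did not pass, with exact permutation p adjusted to 0.557 to 0.978. These p-values do not show that the genes of a pair changed alike.

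**Figure D4:**
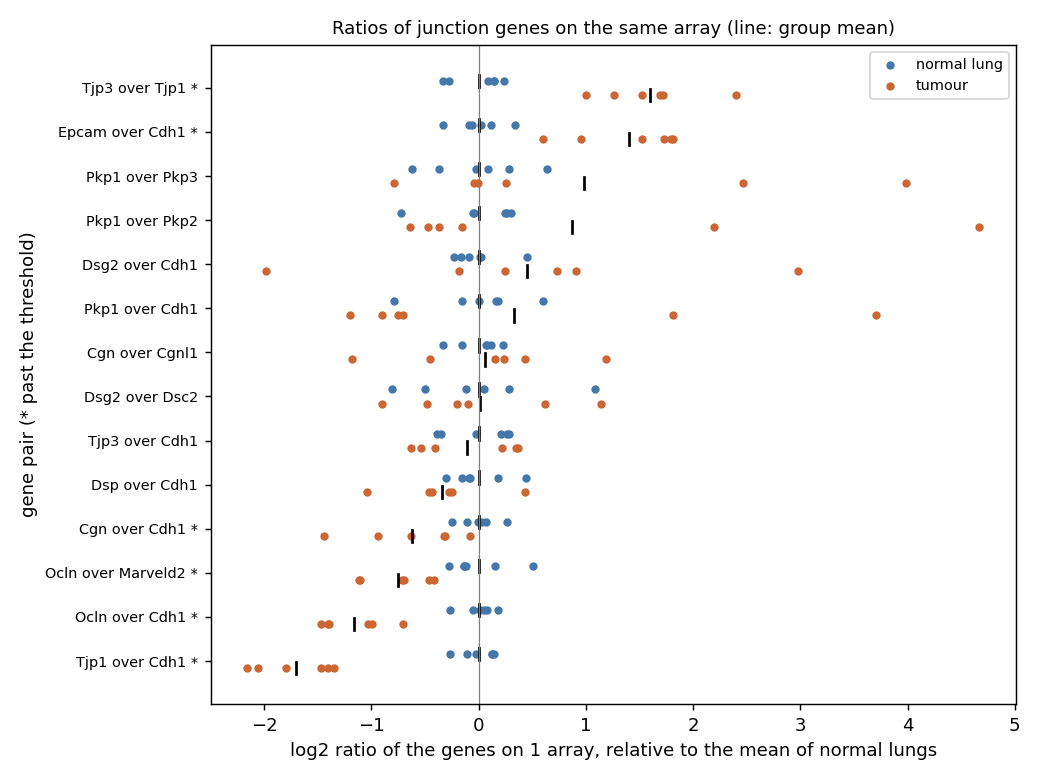
Log2 ratio of 2 genes on the same array for 14 pairs, shown relative to the mean of the normal lungs, 1 point per array, group means as short lines and a star where the adjusted p passed. Tjp3 over Tjp1 and Epcam over Cdh1 lie to the right in every tumour, and Tjp1, Ocln and Cgn over Cdh1 to the left on average.

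Genes whose pattern was most like each member were listed by Pearson r over 12 arrays after subtracting each group's mean, among genes brighter than the median signal in either group. For Dsp they were Plek2 (r = 0.97), Baiap2l1 (0.96) and Ppl, periplakin, itself of the desmosome list (0.96). For Dsg2 they were Sptssb (0.97), Abcc3 (0.97) and Mybbp1a (0.96), and for Pkp1 they were Cldn23 (0.98), Atp10b (0.98) and Aprt (0.98). For Epcam the first was Unc119b (0.94), for Ocln Ttc21b (0.96), for Tjp1 Vdr (0.94), for Tjp3 Lipt1 (0.92) and for Cgn Man2b2 (0.93). These are descriptions over 12 arrays that share normalization. Those of Epcam, Dsp, Dsg2 and Pkp1 rest mainly on tumours, whose spread far exceeded that of normal lungs. For Epcam the SD was 0.47 over tumours and 0.05 over normal lungs. The likeness to Pkp1 rests on tumours 2 and 6. Of the genes compared, 99% had an r below 0.91 with Pkp1, 0.86 with Dsp, 0.84 with Dsg2 and 0.74 with Epcam.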

How the data were processed

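RNA of 6 tumours and 6 normal lungs was measured, 1 array each, with groups and replicate numbers from the sample titles. The authors deposited a linear intensity for each probe set. MAS5 is the tool named in the submitters' processing notes, and its version and settings are not given in the sources used here. Every array had the same 2% trimmed mean (500.0), so the authors' scaling was kept. The number of arrays limits the precision.

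Of 45101 probe sets 64 controls were left out. Symbols came from GEO's platform annotation: of 45037 probe sets 34945 had 1 symbol, 932 several and 9160 none listed. Of 16 planned pairs 2 were not run, and their genes are not reported here. Values were fitted as log2(signal + 16) in R 4.3.3 by limma 3.58.1 (lmFit without covariates, then eBayes with its trend option), adjusted over all 45037 probe sets, threshold 0.05, two-sided. Figures and permutation tests used Python 3.11.15, numpy 2.4.6, pandas 2.3.3 and matplotlib 3.10.9. The script was tested on simulated data before use.

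Named genes were the 8 members, up to 4 called genes with the smallest adjusted p per list, other list members whose value is given, both genes of each pair, and the 3 genes most like each member, of which the first is given for Epcam, Ocln, Tjp1, Tjp3 and Cgn. Lists of other junction genes and of cell type markers came from general knowledge. Members and lists were chosen with earlier results of these data known. Alternatives were the offset, scaling, a filter on dim probe sets, the trend, array weights, a replicate block, the mean of probe sets, and leaving out arrays; those without normal lungs 2 and 4 and without the tumours with Eif2s3y were taken from an earlier description of these data. Same-numbered samples did not deviate together (correlations -0.02 to 0.02), so the numbers do not pair the samples.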

Additional observations from a re-analysis of the deposited data

Results flagged for a closer look

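Jup in normal lung 1 was at 1862, far below the next lowest normal lung at 2543, the gap taking 0.71 of the range of the 6 normal lungs on the log2 scale. It was the 1 sample that stood apart among 48 groups of 6 arrays examined for 24 named genes, where chance gives about 1 in 20. Normal lung 1 still lay above the highest tumour, at 1859.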

How the results depend on the processing

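The calls of Epcam, Tjp1 and Tjp3 held under all alternatives run, with differences of 1.56 to 2.49, -0.98 to -0.62 and 0.70 to 0.98. Leaving out 1 array at a time gave 2.18 to 2.46 for Epcam, -0.87 to -0.71 for Tjp1, 0.73 to 0.85 for Tjp3, -0.35 to -0.20 for Ocln, 0.22 to 0.34 for Cgn, 0.35 to 0.70 for Dsp, 0.79 to 1.83 for Dsg2 and 0.45 to 1.60 for Pkp1. Members called higher numbered 2 to 4 on leaving out 1 array, the 4 without tumour 1, and other desmosome genes higher 1 to 2, the 2 without tumour 4 or 5. With the replicate block no call on the 8 genes changed (Epcam 2.30, adjusted p = 2.18e-05; Dsg2 1.34, adjusted p = 0.104), and 1966 genes were higher and 2868 lower. After median centring 4 members (Cgn at 0.46 and Dsp at 0.75 added), 2 other desmosome genes and 3480 genes in all were higher, and 1 other desmosome gene was lower. With probe sets averaged Ocln was lower (-0.38), so that 2 members were, 4 other desmosome genes were higher, and the pairs gave -0.81 for Dsg2 to Dsc2 and -0.44 for Cgn to Cdh1. Without the tumours with Eif2s3y Dsg2 was higher by 2.80, 7 other tight junction and 2 other desmosome genes were higher and 1 of the latter lower. With 2 tumours left the smallest exact permutation p could not pass after adjustment (0.0714): Tjp3 to Tjp1 1.49, Ocln to Marveld2 -0.76, Epcam to Cdh1 1.37, Ocln to Cdh1 -1.01, Tjp1 to Cdh1 -1.57, Cgn to Cdh1 -0.63, Cgn to Cgnl1 -0.15 and Dsg2 to Dsc2 -0.29. Without normal lungs 2 and 4, Cgn to Cgnl1 was -0.058, Dsg2 to Dsc2 -0.14, Tjp3 to Cdh1 0.019 and Cgn to Cdh1 -0.68, and 1 other desmosome gene was lower. Quantile normalization gave Dsg2 to Dsc2 -0.12, Tjp3 to Cdh1 0.21 and Cgn to Cdh1 -0.38, and an offset of 1 gave Dsg2 to Dsc2 -0.092. On leaving out 1 array the pair ratios ranged from -0.16 to 0.31 for Cgn to Cgnl1, -0.21 to 0.23 for Dsg2 to Dsc2, -0.20 to 3.03e-04 for Tjp3 to Cdh1, -0.73 to -0.46 for Cgn to Cdh1, -0.49 to -0.20 for Dsp to Cdh1, -0.057 to 0.94 for Dsg2 to Cdh1 and -0.35 to 0.63 for Pkp1 to Cdh1. None of the pairs that changed direction passed the threshold in either case, and the cause of these changes was not tested. Signals near the offset, as for Pkp1 outside tumours 2 and 6, limit what can be said of small differences.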
